A study of Mus musculus with 6 samples.

Results

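Translation initiation factors are the proteins that bring the initiator methionyl-tRNA, the small ribosomal subunit and the messenger RNA together. Their genes were taken as those of the array annotation whose symbol begins with Eif1 to Eif6 and that have at least 1 probe set carrying that symbol alone, with the eIF2alpha kinases and the sex-linked genes Eif2s3x and Eif2s3y left out by the same rule. Of 19938 genes measured this way, 43 were initiation factor genes: 8 Eif2 genes, 11 Eif3 genes, 15 Eif4 genes and 9 genes of the Eif1, Eif5 and Eif6 groups. Where a gene had several probe sets, the brightest over the 6 arrays stood for it. The annotation gave no probe set of its own to Eif1, Eif2s1, Eif3g and Eif4g1, which were not analysed here, and gave Eif3j1, Eif3j2 and Eif4ebp3 only probe sets shared with other symbols.

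The cells were tumour-associated macrophages, sorted by flow cytometry from hepa1-6 tumours, a mouse hepatoma line, that had been implanted in the liver of C57BL/6 mice. Total RNA of 3 vehicle samples and 3 PLX3397 samples was measured on Affymetrix Mouse Gene 1.0 ST arrays. PLX3397 blocks CSF1R, the receptor that macrophages need for survival and growth, along with KIT and FLT3. Both groups carried the same tumour, and the labels give neither dose, time, age nor sex. They call the samples of each group biological replicates but do not say whether each came from a separate animal. A second name in the sample descriptions, M(LPS+IFNγ) for vehicle and M(IL4) for PLX3397 samples, goes against the titles, sources and treatment labels, which were used here.

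Initiation begins when the GTP-binding factor eIF2 loads the initiator tRNA, and the exchange factor eIF2B resets eIF2 after each round. The scaffold eIF3 holds the small ribosomal subunit, the eIF4F complex binds the cap of the messenger and unwinds its leader, and eIF1, eIF1A, eIF5 and eIF5B choose the start codon and join the large subunit. Phosphorylation of the alpha subunit of eIF2 by stress kinases, and that of the 4E-BP repressors by mTORC1 are the best known controls of the pathway. In macrophages these controls are known for shaping the output of inflammatory and stress proteins.

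Most initiation factor genes had less transcript in macrophages of the PLX3397 group. Of the 43 genes, 22 were lower and 4 higher at an adjusted p of 0.05 (limma, Benjamini-Hochberg over all 19938 genes), and 17 did not pass. Across all genes 37.8% passed, 18.3% lower and 19.6% higher, so the initiation factors, at 51.2% and 9.30%, had more falls and fewer rises than the array as a whole. Of the 43, 39 had a mean level above 5 on the log2 scale, and among the 8736 genes above that level the background was higher, with 61.8% called, 34.3% lower and 27.5% higher. The median change, PLX3397 minus vehicle, was -0.29 over the initiation factors, 0.04 over all genes and -0.04 over genes above level 5. The 3 samples of each group did not overlap, with PLX3397 below vehicle, in 28 of the 43 genes and, with PLX3397 above, in 8. The groups were apart in 49.3% of all genes (21.9% lower, 27.4% higher) and in 70.9% of genes above level 5 (38.4% lower, 32.5% higher). In RNA from a sorted population, fewer cells of a kind and less RNA per cell cannot be told apart. Each value is relative to the other transcripts on its array. With each array centred on its own median, the median change of all genes moved from 0.04 to -0.09. The share of all calls that were higher moved from 51.7% to 30.6%. Counts over all 19938 genes moved from 3639 lower and 3900 higher to 5169 lower and 2282 higher. Among the initiation factor genes 31 were then called lower and 2 higher. Centring shifts all genes of an array by the same amount, so calls that single genes gain or lose by it are not separate results.

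**Figure D1:**
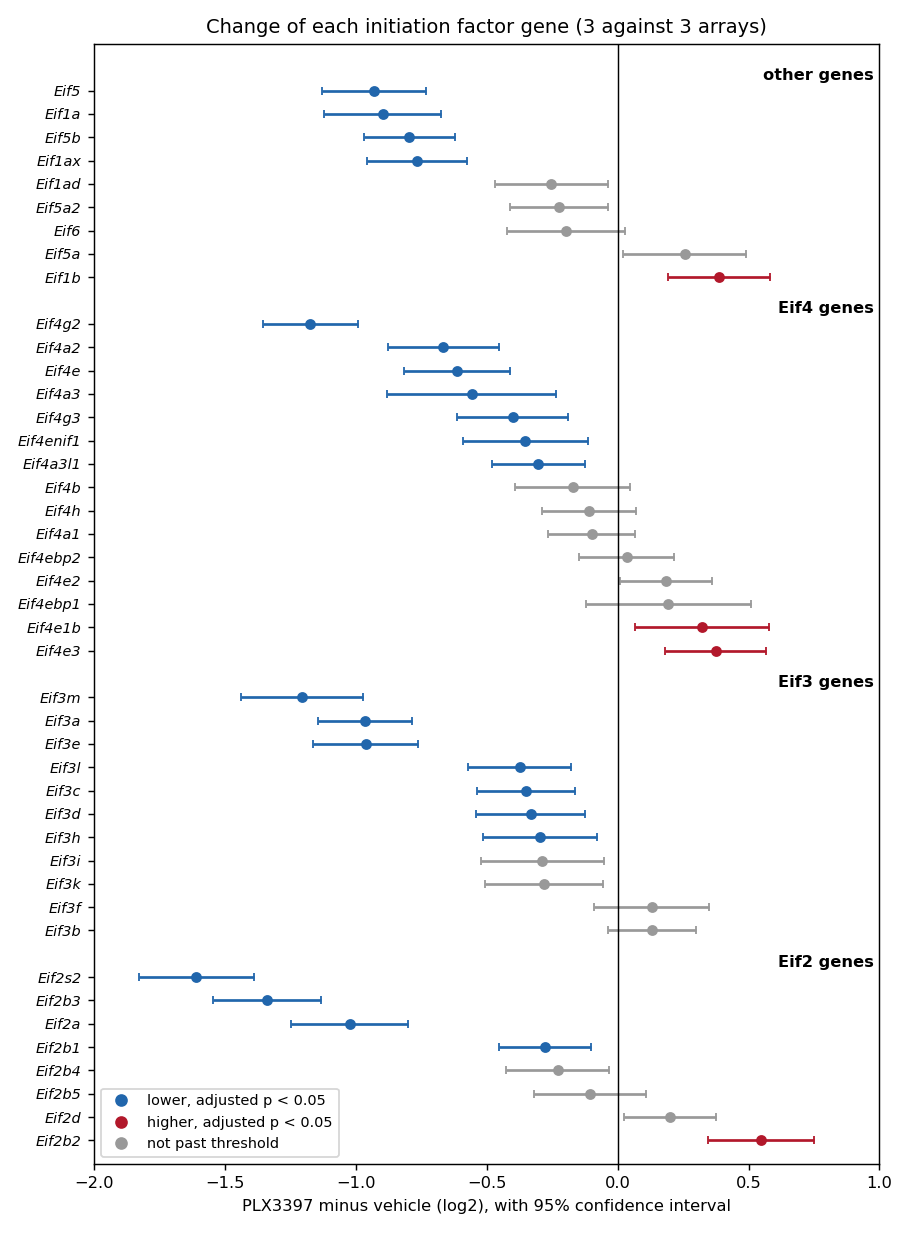
Change of each of the 43 initiation factor genes, PLX3397 minus vehicle on the log2 scale (x axis), by family (y axis), with the 95% interval of the limma fit as bars. Blue and red points are genes called lower and higher at an adjusted p of 0.05, and grey points did not pass. The points run from -1.61 (Eif2s2) to 0.55 (Eif2b2), and 32 of the 43 lie below 0.

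Changes ran from -1.61 to 0.55 in the Eif2 genes, from -1.21 to 0.13 in the Eif3 genes, from -1.17 to 0.37 in the Eif4 genes and from -0.93 to 0.39 in the other genes. Of the 8 Eif2 genes, 4 were lower and 1 higher, with a median change of -0.25. Of the 11 Eif3 genes, 7 were lower and 0 higher, with a median of -0.33. Unadjusted, 9 had a p below 0.05 in either direction, beside 9021 of all 19938 genes and 5980 of the 8736 above level 5. Of the 15 Eif4 genes, 7 were lower and 2 higher, with a median of -0.17, and of the other 9 genes 4 were lower and 1 higher, with a median of -0.25. The shares lower were 50% (Eif2), 63.6% (Eif3), 46.7% (Eif4) and 44.4% (other), and those higher 12.5%, 0%, 13.3% and 11.1%. Among genes above level 5, 34.3% were lower and 27.5% higher. In either direction 5 Eif2, 7 Eif3, 9 Eif4 and 5 other genes were called, beside 61.8% of genes above level 5. Differences between the families were not tested. The third PLX3397 sample was the lowest of its group in 27 of the 43 genes and the highest in 5. Without it 19 genes were lower and 3 higher, the Eif3 median was -0.25 and the Eif4 median was -0.10.

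**Figure D2:**
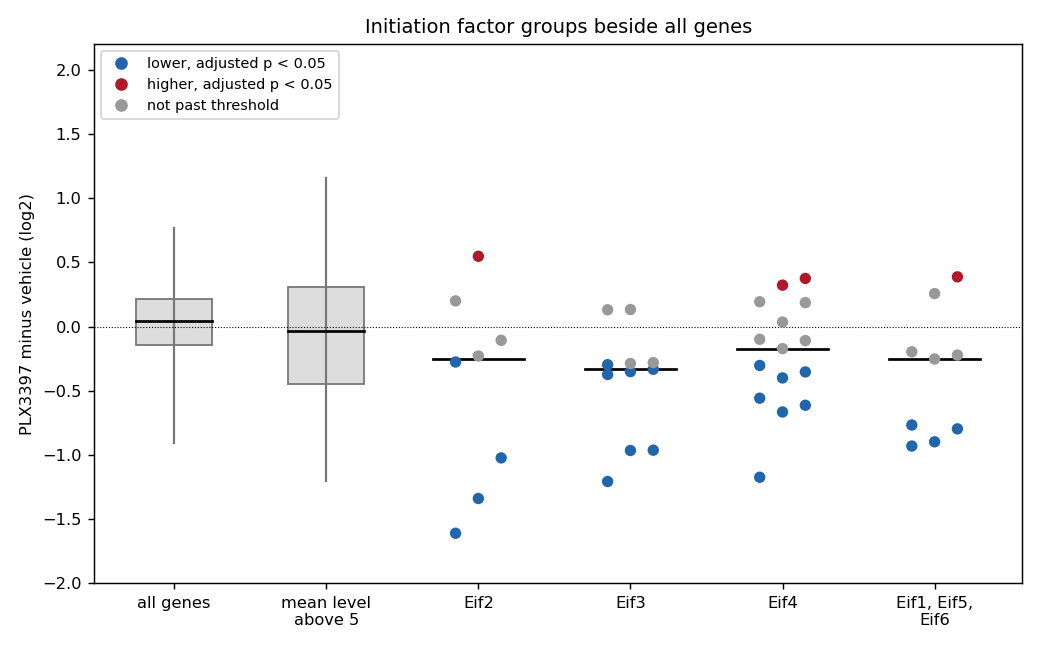
Changes, PLX3397 minus vehicle on the log2 scale, of the genes of each family as points (blue lower, red higher, grey not past the threshold), beside all genes and genes with a mean level above 5, drawn as quartile boxes with lines from the 5th to the 95th percentile. Black bars are medians, and those of the Eif2, Eif3 and Eif4 genes (-0.25, -0.33 and -0.17) lie below the 0.04 of all genes.

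The stretches of promoter below, 100 bases before an annotated start from RefSeq (build GRCm38.p6), show what lies upstream of 4 of the genes that fell most, of Eif4e, and of Eif3f, which did not pass, and of Eif1b and Eif2b2, which rose. Capitals mark the ETS core CCGGAAG in Eif3m and the E-box CACGTG in Eif4e, Eif3f and Eif1b, and the other stretches hold neither. Outside these 100 bases, the wider windows counted further below hold an E-box in Eif3a and an ETS core in Eif1b and Eif2b2. Eif4e has 2 annotated starts, and the stretch printed is that of the second. The 100 bases before its first start hold neither motif.
Eif2s2, chr2:154892907-154893006, minus strand: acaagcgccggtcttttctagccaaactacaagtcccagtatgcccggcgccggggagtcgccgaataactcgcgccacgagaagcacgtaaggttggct
Eif3m, chr2:105017028-105017127, minus strand: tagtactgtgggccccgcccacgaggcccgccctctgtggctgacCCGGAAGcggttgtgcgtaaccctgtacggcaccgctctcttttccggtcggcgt
Eif2a, chr3:58525721-58525820, plus strand: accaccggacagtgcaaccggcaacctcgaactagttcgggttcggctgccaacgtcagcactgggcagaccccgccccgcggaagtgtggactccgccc
Eif3a, chr19:60790694-60790793, minus strand: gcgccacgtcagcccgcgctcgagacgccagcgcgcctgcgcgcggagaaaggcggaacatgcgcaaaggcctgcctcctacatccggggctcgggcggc
Eif4e, chr3:138527168-138527267, plus strand: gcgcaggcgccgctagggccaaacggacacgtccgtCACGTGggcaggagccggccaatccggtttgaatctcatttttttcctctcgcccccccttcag
Eif3f, chr7:108934315-108934414, plus strand: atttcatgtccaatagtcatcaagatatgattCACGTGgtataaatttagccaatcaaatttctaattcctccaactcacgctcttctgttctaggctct
Eif1b, chr9:120492506-120492605, plus strand: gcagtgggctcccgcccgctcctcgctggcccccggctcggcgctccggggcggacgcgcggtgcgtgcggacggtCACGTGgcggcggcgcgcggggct
Eif2b2, chr12:85219381-85219480, plus strand: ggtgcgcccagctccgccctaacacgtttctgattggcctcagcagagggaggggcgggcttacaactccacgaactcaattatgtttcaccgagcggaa

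The largest fall was that of the eIF2 subunit. Eif2s2 encodes the beta subunit of eIF2, which contacts eIF5 and eIF2B. Its level was 8.79, 8.97 and 8.88 in the vehicle samples and 7.24, 7.44 and 7.13 in the PLX3397 samples. The groups stood well apart, and the change was -1.61 (SE 0.10, limma adjusted p = 8.66e-07), a 3.05-fold lower level. A dimmer probe set of Eif2s2 changed by -1.56. Eif2a encodes eIF2A, a separate carrier of initiator tRNA, and not the alpha subunit. Its level was 7.47, 7.73 and 7.39 with vehicle and 6.45, 6.53 and 6.55 with PLX3397. That was a change of -1.02 (SE 0.10, adjusted p = 2.11e-05), 2.03-fold lower, and no PLX3397 sample reached the lowest vehicle sample. Eif2d, a further tRNA carrier, changed by 0.20 and did not pass (adjusted p = 0.0707), although it did with quantile normalisation, at 0.24, and came to 0.07 with arrays centred.

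The subunits of eIF2B moved in both directions. Eif2b3, the gamma subunit of the catalytic part, read 7.72, 7.92 and 7.82 in vehicle samples against 6.57, 6.53 and 6.34 in PLX3397 samples. It fell by 1.34 (SE 0.09, adjusted p = 1.99e-06), or 2.53-fold, with the groups far apart. Its catalytic partner Eif2b5, the epsilon subunit, changed by -0.11 (95% interval -0.32 to 0.11, adjusted p = 0.425). Eif2b2, the regulatory beta subunit, went the other way and had the largest rise of the 43 genes. It measured 6.80, 6.80 and 6.99 with vehicle and 7.49, 7.44 and 7.30 with PLX3397. The change was 0.55 (SE 0.09, adjusted p = 7.71e-04), 1.46-fold higher, and again no sample overlapped. Of the other regulatory subunits, Eif2b1 (alpha) fell by 0.28 (adjusted p = 0.0191) and Eif2b4 (delta) changed by -0.23 (adjusted p = 0.065). The call on Eif2b1 was lost without the second vehicle sample and with quantile normalisation (-0.17, adjusted p = 0.107). Eif2b4 was called lower with quantile normalisation (-0.34) and with arrays centred (-0.36).

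Among the 11 Eif3 genes with a probe set of their own, the 3 largest falls were those of subunits with a PCI domain, the fold that builds the octameric core together with the MPN subunits. Eif3m read 7.99, 7.93 and 7.88 with vehicle and 6.60, 6.95 and 6.62 with PLX3397, a change of -1.21 (SE 0.10, adjusted p = 9.22e-06), 2.31-fold. Eif3a, the largest subunit, read 9.45, 9.58 and 9.47 against 8.61, 8.50 and 8.49, a change of -0.97 (SE 0.08, adjusted p = 7.60e-06). Eif3e read 8.93, 9.02 and 8.98 against 8.14, 7.87 and 8.03, a change of -0.96 (SE 0.09, adjusted p = 1.47e-05). In each of these the groups were apart by more than the spread within either group, and a second probe set of Eif3m changed by -0.90. The other PCI subunits had smaller changes, with Eif3l at -0.37 (adjusted p = 0.00709) and Eif3c at -0.35 (adjusted p = 0.00763), both past the threshold. Eif3k, at -0.28, missed it (adjusted p = 0.0509). The MPN subunits divided: Eif3h fell by 0.30 (adjusted p = 0.0357), while Eif3f changed by 0.13 (95% interval -0.09 to 0.35, adjusted p = 0.339).

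The remaining subunits of eIF3 differed from each other. Eif3d, which can bind the cap of some messengers, fell by 0.33 (adjusted p = 0.0179). Eif3i, a WD-repeat subunit, changed by -0.29 and did not pass (adjusted p = 0.0565), and its groups overlapped. Eif3b, the subunit to which Eif3i binds, changed by 0.13 (95% interval -0.04 to 0.30, adjusted p = 0.204), although its 3 PLX3397 values all lay above its vehicle values. With arrays centred on their medians Eif3b and Eif3f came to -0.0019 and -0.0037, so the sign of both turned with the scaling. Several of these calls rested on single samples. Eif3d did not pass without the third PLX3397 sample or without vehicle sample 1 or 3, Eif3h did not pass in 5 of the 6 analyses that left out a sample, and Eif3k passed without the second PLX3397 sample, as did Eif3i without the first. With arrays centred both were called lower (-0.41 and -0.42). The loosely bound subunit eIF3j, measured here by a pair of probe sets that carry both Eif3j1 and Eif3j2, changed by -1.46 and -1.34 (adjusted p = 4.21e-06 and 2.16e-06 over all 28941 probe sets, of which 17.4% were called lower), and which of the near-identical genes gave that signal is uncertain.

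**Figure D3:**
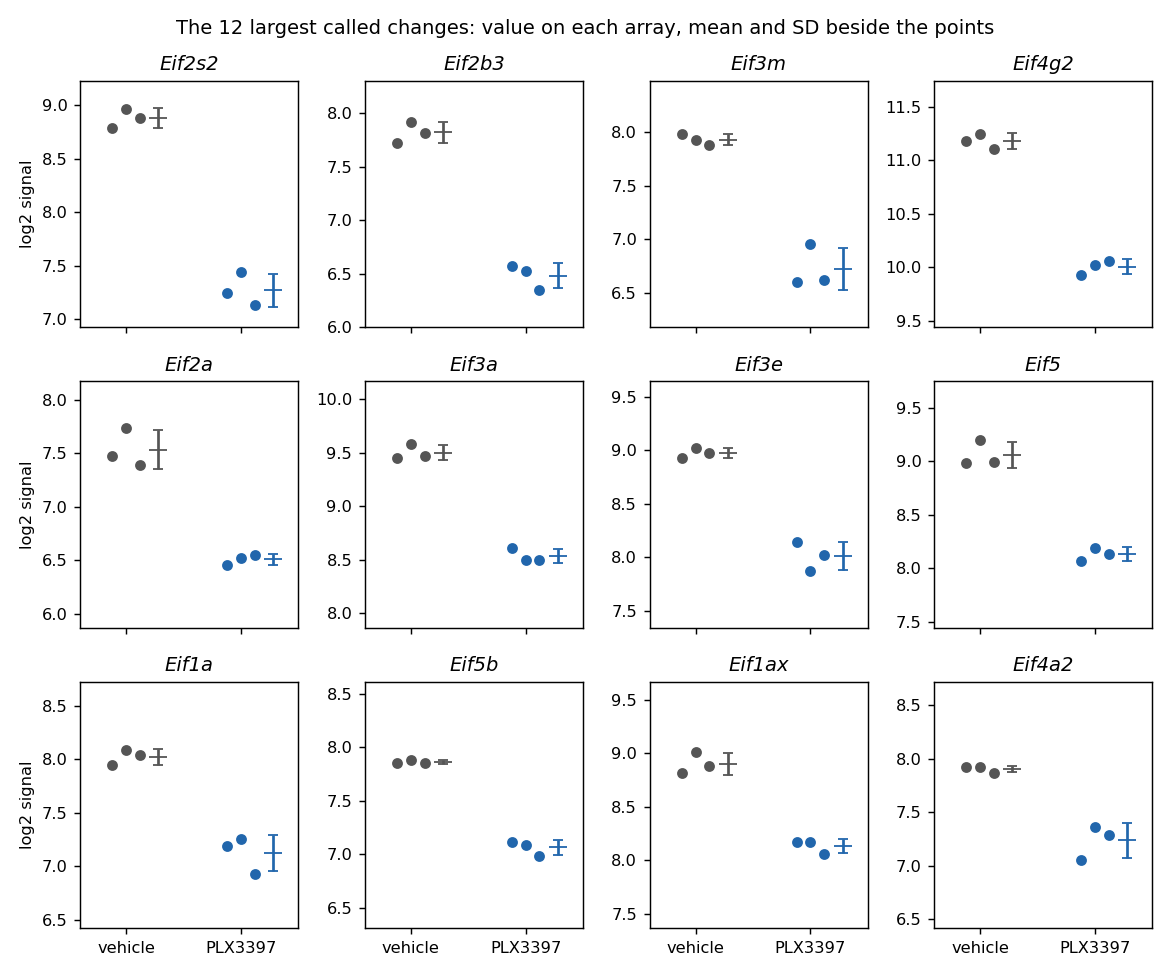
Level on each of the 6 arrays, on the log2 scale (y axis), of the 12 initiation factor genes with the largest changes past the threshold, with vehicle samples in grey, PLX3397 samples in blue and each group's mean and SD (n = 3) beside its points; the y axis differs between genes. In all 12 genes the 3 PLX3397 points lie below the 3 vehicle points.

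Among the factors that bind the small subunit and choose the start codon, 3 of 5 genes were lower and 1 higher. That is 60% and 20%, beside 34.3% and 27.5% of genes above level 5. Eif5, the GTPase activator of eIF2, read 8.98, 9.20 and 8.99 with vehicle and 8.06, 8.19 and 8.14 with PLX3397, a change of -0.93 (SE 0.09, adjusted p = 1.72e-05). The factor eIF1A, which sits in the decoding site of the small subunit, is encoded by both Eif1a and Eif1ax. Eif1a read 7.95, 8.09 and 8.04 against 7.20, 7.25 and 6.93, a change of -0.90 (SE 0.10, adjusted p = 5.19e-05). Eif1ax read 8.81, 9.01 and 8.88 against 8.18, 8.17 and 8.06, a change of -0.77 (SE 0.09, adjusted p = 5.14e-05). None of the 3 genes had overlapping groups. Eif1a and Eif1ax are near-identical and may share probes, so their values are uncertain as to which gene they measure. A further 4 probe sets that list Eif1a with predicted genes changed by -0.55 to -0.80. Eif1b, a relative of the scanning factor eIF1, rose by 0.39 (adjusted p = 0.00528), 1.31-fold, and Eif1ad, a protein with an eIF1A-like domain, changed by -0.25 (adjusted p = 0.066). Eif1ad passed without the second PLX3397 sample and, at -0.39, with arrays centred.

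Later steps differed from gene to gene. Eif5b, the GTPase that joins the large subunit, read 7.85, 7.88 and 7.85 with vehicle and 7.11, 7.09 and 6.98 with PLX3397, a change of -0.80 (SE 0.08, adjusted p = 2.04e-05) with no overlap. Eif5a, whose product carries hypusine and acts mainly in elongation, changed by 0.26 (adjusted p = 0.0826). It passed at 0.00817 without the second PLX3397 sample, and its second probe set, at 0.23, had an adjusted p of 0.0491. With quantile normalisation its change was 0.01 (adjusted p = 0.941), and with arrays centred it was 0.12 (adjusted p = 0.402). The related Eif5a2 changed by -0.22 (adjusted p = 0.0619), and Eif6, which keeps the large subunit from joining too early, changed by -0.20 (adjusted p = 0.163). With arrays centred both were called lower (-0.36 and -0.33), and Eif5a2 was also called lower with quantile normalisation (-0.35).

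Of the eIF4F group, which recruits the messenger, the helicase genes differed from each other. Eif4a2 read 7.92, 7.92 and 7.87 with vehicle and 7.06, 7.36 and 7.29 with PLX3397, a change of -0.67 (SE 0.09, adjusted p = 2.77e-04) with the groups apart. For Eif4a1, its close paralogue, the change was -0.10 (95% interval -0.27 to 0.07, adjusted p = 0.341), and 3 probe sets of that gene lay between -0.07 and -0.10. The value for Eif4a1 moved with the scaling, and it was called lower at -0.33 with quantile normalisation (adjusted p = 0.00519) and at -0.23 with arrays centred (adjusted p = 0.0364). The difference between the changes of Eif4a1 and Eif4a2 was not tested. The helicase cofactors Eif4b and Eif4h changed by -0.17 (adjusted p = 0.208) and -0.11 (adjusted p = 0.324), neither past the threshold as deposited and both called lower with arrays centred (-0.31 and -0.24). The scaffold Eif4g3 fell by 0.40 (adjusted p = 0.00731). Eif4a3, the helicase of the exon junction complex, fell by 0.56 (SE 0.14, adjusted p = 0.0115), and the related gene Eif4a3l1 fell by 0.30 (adjusted p = 0.0125), with the caution that these paralogues share probe sets, a pair of which changed by -0.27 each.

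The cap-binding protein itself gave a divided picture. The brightest probe set of Eif4e read 8.91, 9.05 and 8.94 with vehicle and 8.41, 8.44 and 8.20 with PLX3397. The groups did not overlap, and it fell by 0.61 (SE 0.09, adjusted p = 3.82e-04). The second probe set of Eif4e rose by 0.60 (adjusted p = 0.00155), and the third fell by 0.98 (adjusted p = 0.00356), so the direction for the gene depends on the probe set. Eif4g2, which encodes DAP5, a relative of eIF4G that lacks the region binding Eif4e, had the fourth largest fall. It read 11.18, 11.25 and 11.10 with vehicle and 9.92, 10.02 and 10.06 with PLX3397, a change of -1.17 (SE 0.08, adjusted p = 2.17e-06), 2.26-fold, and the samples of a group lay close together. The relatives of Eif4e were higher or not past the threshold: Eif4e3 rose by 0.37 (adjusted p = 0.00631), Eif4e1b rose by 0.32 (adjusted p = 0.0485) and Eif4e2 changed by 0.19 (adjusted p = 0.0927). Eif4e1b lay low, at means of 4.06 with vehicle and 4.38 with PLX3397, not far above the background level of 3.52 to 3.58. The call on Eif4e1b was lost in 4 of the 6 analyses that left out a sample, and with arrays centred neither Eif4e1b (0.19) nor Eif4e3 (0.24) passed. Eif4e2 came to 0.05 with arrays centred. With quantile normalisation Eif4e2 passed, at 0.27, and Eif4e1b, at 0.19, did not.

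The 4E-BP repressors of Eif4e showed no change past the threshold. Eif4ebp1 (4E-BP1) read 8.12, 8.05 and 8.21 with vehicle and 8.13, 8.69 and 8.14 with PLX3397. The groups overlapped, the second PLX3397 sample stood above the rest, and the change was 0.19 (95% interval -0.12 to 0.51, adjusted p = 0.325). Eif4ebp2 read 6.95, 7.01 and 7.13 against 7.04, 7.10 and 7.05, a change of 0.03 (95% interval -0.15 to 0.22, adjusted p = 0.78) with the groups interleaved. Eif4ebp3 was measured only on a probe set shared with Ankhd1, which read 4.87, 4.73 and 4.66 against 4.50, 4.68 and 4.51, a change of -0.20 (adjusted p = 0.131 over all probe sets). Eif4enif1 (4E-T), which carries Eif4e into the nucleus, fell by 0.35 (adjusted p = 0.025), a call that was lost without the third PLX3397 sample and without vehicle sample 2 or 3. It was also lost with quantile normalisation (-0.27, adjusted p = 0.0617) and with the mean of its probe sets (-0.23, adjusted p = 0.0725), and its second probe set changed by -0.11 (adjusted p = 0.374).

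Beyond the stretches printed above, 33 of the 43 genes had a promoter entry, spanning 250 bases before to 50 after each annotated start, with 1.36 windows per gene against 1.22 per protein-coding gene. Eif1a, Eif2b3, Eif3e, Eif3h, Eif3i, Eif4e1b, Eif4e3, Eif4ebp1, Eif4g2 and Eif6 had none. The ETS core CCGGAAG, searched on both strands, was in 14 of the 33 (42.4%) and in 12.9% of 17491 protein-coding genes. The E-box CACGTG, the core of the site that Myc and its relatives bind, was in 9 (27.3%) against 8.91%, or 21.2% against 7.90% with 1 window per gene. The GC box GGGCGG was in 25 (75.8%) against 49.2%, and the CCAAT box was in 13 (39.4%) against 42.3%. Of the 9 genes with an E-box 2 were called lower and their median change was -0.11, and of the 24 without one 15 were called lower and the median was -0.34. The CRE TGACGTCA and the ATF4 element TGATGNAA were in 0 of the 33 genes, against 2.54% and 4.13% of genes, and the YY1 motif was in 0 against 1.06%. The NRF1 motif was in 1 (3.03% against 1.47%) and the antioxidant element TGACNNNGC in 5 (15.2% against 14.8%). A smaller median fall in genes with a motif than in those without was not particular to the E-box. The medians were -0.24 against -0.30 for the ETS core, -0.23 against -0.34 for CCAAT and -0.25 against -0.35 for GC. For the antioxidant element they were -0.22 against -0.32, and for NRF1 -0.28 against -0.29. These 9 motifs and the genes printed were chosen after the values were seen, motif matches may overlap, and none of this was tested.

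The eIF2alpha pathway, which acts on eIF2 and eIF2B, was measured in all 14 of its listed genes. Of these, 7 were lower and 1 higher, with a median change of -0.22. That is 50% lower and 7.14% higher, against 18.3% and 19.6% of all genes and 34.3% and 27.5% of genes above level 5. All 14 genes lay above that level, where 61.8% were called in either direction, and 8 of the 14 were called. Of the kinases, Eif2ak2 (PKR, activated by double-stranded RNA) fell by 1.09 (adjusted p = 6.22e-05) and Eif2ak1 (HRI, activated by lack of haem) fell by 0.30 (adjusted p = 0.0139). Eif2ak3 (PERK) changed by -0.01 and Eif2ak4 (GCN2) by 0.15, neither past the threshold. Ppp1r15b, the constitutive partner of the eIF2alpha phosphatase, fell by 0.65 and Dnajc3, an inhibitor of PKR and PERK, fell by 0.67 (adjusted p = 1.08e-04 and 2.00e-04). Of the transcription factors downstream, Atf4 read 8.08, 8.08 and 8.13 with vehicle and 7.29, 7.74 and 7.51 with PLX3397, a change of -0.59 (adjusted p = 0.0018), whereas Atf5 rose by 0.88 (adjusted p = 1.94e-05). Without the third PLX3397 sample the list had 2 genes higher.

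Of the 16 measured genes of the mTORC1 and 4E-BP list, 5 were lower and 7 higher, with a median of 0.10. That is 31.25% and 43.75%, against 18.3% and 19.6% of all genes and 34.3% and 27.5% of genes above level 5. Of the 16, 15 lay above that level. The genes that rose included inhibitors of the complex: Ddit4 (REDD1) rose by 2.37 (5.17-fold, adjusted p = 2.10e-05) and Deptor by 0.79 (adjusted p = 1.93e-05). Mknk2, a kinase that phosphorylates Eif4e, rose 2.82-fold (adjusted p = 2.34e-06). Rheb, the GTPase that activates mTORC1, fell by 1.04 (adjusted p = 6.01e-06), and Mtor itself fell by 0.30 (adjusted p = 0.0216). The count of lower genes dropped to 3 without the first or the second vehicle sample, and Mtor was not called in either case. The count of higher genes dropped to 4 without the second vehicle sample.

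Of the 17 measured genes of the elongation and termination list, 10 were lower and 0 higher (limma), with a median of -0.52. Without adjustment 11 had a p below 0.05, beside 9021 of all 19938 genes and 5980 of the 8736 above level 5. The lower share was 58.8%, against 18.3% of all genes and 34.3% of genes above level 5. The higher share was 0%, against 19.6% and 27.5%. The list also holds genes that act at other steps, such as Eef1e1 and Paip1. Eef1e1, a scaffold of the tRNA synthetase complex, fell by 1.62 (adjusted p = 7.00e-07) and Abce1, the ribosome recycling ATPase, fell by 1.46 (adjusted p = 1.32e-06). Paip1, which links the poly(A)-binding protein to eIF3 and eIF4A, fell by 1.19 (adjusted p = 1.98e-05), and Gspt1 (eRF3) fell by 1.03 (adjusted p = 1.98e-05). The elongation factor gene Eef2 changed by 0.0006 (adjusted p = 0.996). Without the third vehicle sample 1 gene of the list, Paip2b, was called higher.

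**Figure D4:**
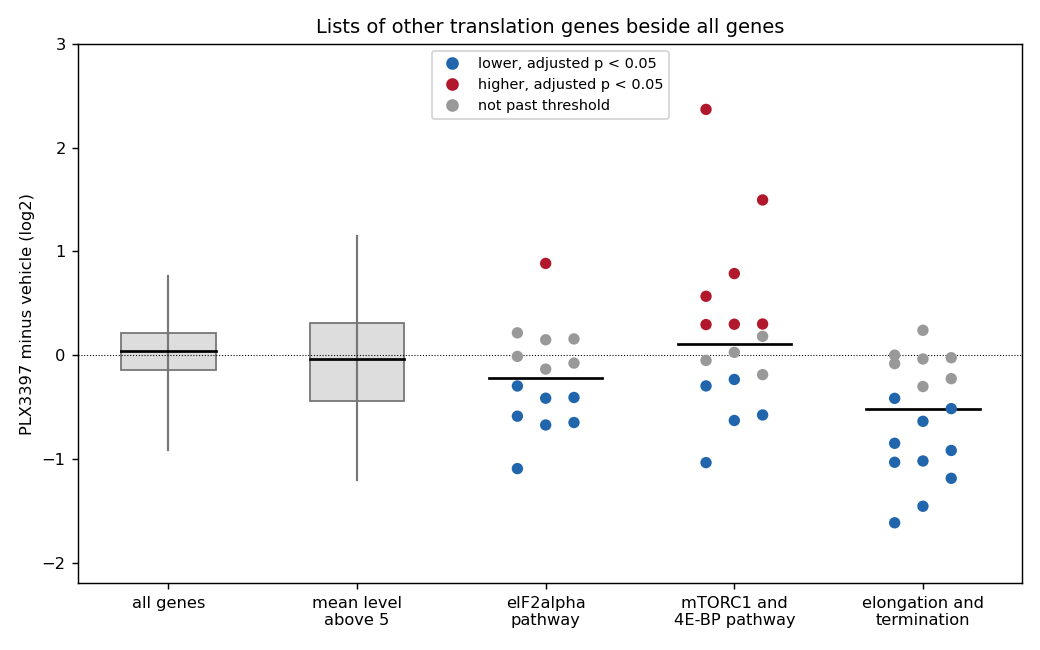
Changes, PLX3397 minus vehicle on the log2 scale, of the genes of the 3 pathway lists as points (blue lower, red higher, grey not past the threshold), beside all genes and genes with a mean level above 5, drawn as quartile boxes with lines from the 5th to the 95th percentile. Black bars are medians: that of the elongation and termination list (-0.52) is the lowest and that of the mTORC1 and 4E-BP list (0.10) lies above 0.

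All 8 macrophage markers exceeded the background level on every array, with a summed linear level of 20604 to 20933 in vehicle and 21241 to 22798 in PLX3397 samples, 2 genes higher and 3 lower. Of the T cell markers 3 of 4 lay below background on all arrays. Some markers of other cells were higher with PLX3397: 4 of 5 endothelial genes (summed level 138 to 151 against 400 to 409), 2 of 6 neutrophil genes (194 to 211 against 372 to 699) and 3 of 4 B cell genes (51.9 to 55.8 against 66.1 to 73.7). Of all genes 18.3% were lower and 19.6% higher. Among the genes counted as higher, Ly6g of the neutrophil list and Cd79a and Ms4a1 of the B cell list lay below background on all 6 arrays. That left S100a8 (1.52) and Cd79b (0.62) as the called genes of those lists above background. Of 5 hepatocyte or hepatoma genes only Trf was higher (371 to 410 against 2350 to 2994), with Alb and Ttr below background on all arrays. Fibroblast genes had 2 of 5 lower, Col1a1 (-0.60) and Col1a2 (-0.43), yet their summed level did not fall (324 to 532 against 361 to 754). That sum includes Dcn, the brightest of the list, whose change of 0.95 did not pass (limma adjusted p = 0.0613). Of the proliferation genes 3 of 5 were higher (953 to 957 against 918 to 1087). Their part in the lower levels of the initiation factors was not tested.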

How the data were processed

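Values per probe set were deposited by the authors on a log2 scale. MAS5 appears in the submitters' processing notes, without a version or role. For summarisation, normalisation and genome build nothing is given in the sources used here, and the log base was inferred from the range of values. Scanner files and scan dates were not used here, and batches were therefore not tested. Of 28941 probe sets, 21789 carry 1 symbol in the platform annotation, 1621 several and 5531 none. The brightest probe set over the 6 arrays stood for each of 19938 genes, a choice that mattered for 999. Array medians over all genes ran from 4.44 to 4.47 with vehicle and from 4.57 to 4.60 with PLX3397, without overlap. Values were used as deposited. Replicates correlated at 0.992 to 0.997.

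Groups were compared with limma 3.58.1 in R 4.3.3 (two-sided moderated test from lmFit and eBayes, with no covariate), with Benjamini-Hochberg adjustment over all genes and a threshold of 0.05. The fit was tested on simulated data. With 3 samples per group their number limits the precision, and the smallest exact permutation p for a single gene is 0.1. The p-values reflect only the spread among these samples. Their titles call them biological replicates, without saying whether each is a separate animal. Background was set per array at the 95th percentile over 1194 vomeronasal and olfactory receptor genes (3.52 to 3.58), and all 43 initiation factor genes exceeded it on all 6 arrays. Every initiation factor gene is named with its change. Values in every sample are given for the 12 largest changes past the threshold, the eIF2 subunit, Eif4e and the 4E-BP genes, and for Eif2b2 and Atf4, which were added after their values were seen. Of each pathway list up to 4 genes past the threshold with the largest change are named, with Eif2ak1 to Eif2ak4, Mtor and Atf4 always. Eef2 was added after its value was seen. The genes and lists were chosen with earlier results of these data known. Alternatives covered quantile normalisation, centring, variance settings, array weights, the replicate block, the mean of probe sets, filters at mean levels of 4 and 5, a threshold of 0.01 and leaving out each sample, and, added after seeing the data, each other probe set of a gene.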

Additional observations from a re-analysis of the deposited data

Results flagged for a closer look

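A probe set that carries both Snora28, a small nucleolar RNA gene, and Eif5 was left out of the genes above because it has several symbols. It read 6.07, 5.59 and 5.75 with vehicle and 7.80, 7.68 and 7.60 with PLX3397, so the groups did not overlap. The change was 1.89 (SE 0.12, limma adjusted p = 3.11e-06 over all 28941 probe sets, of which 17.3% were called higher), 3.71-fold higher, whereas the probe set of Eif5 alone fell by 0.93. Which transcript of the locus it measures was not tested.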

How the results depend on the processing

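Of the 26 genes called, 17 kept call and direction in all 16 alternatives listed above and with other probe sets where there were any, 15 lower and 2 higher (Eif1b and Eif2b2). Of these 17, only Eif2s2 and Eif3m had another probe set carrying their symbol alone, so for the rest other probe sets could not be checked. Eif5 is among the 17, although the probe set it shares with Snora28 rose by 1.89. Leaving out each sample gave 19 to 24 initiation factor genes lower and 3 to 5 higher, Eif3 medians of -0.39 to -0.25, 1 to 2 Eif4 genes higher, 1 to 2 genes of the eIF2alpha list higher, 0 to 1 of the elongation list higher, and 3 to 4 lower and 4 to 6 higher in the mTORC1 list. Centring gave 2282 of all genes higher, 2 initiation factor genes and 0 Eif4 genes higher, 4 mTORC1 genes higher, and medians of -0.42 (all initiation factors), -0.39 (Eif2), -0.47 (Eif3) and -0.31 (Eif4); it turned Eif3b to -0.0019, Eif3f to -0.0037 and Eif4ebp2 to -0.10. Leaving out each sample gave Eif4ebp2 changes of -0.0062 to 0.084, negative only without the first vehicle sample, and the second probe set of Eif4e changed by 0.60. Quantile normalisation gave 24 lower and 5 higher, 2 Eif2 genes higher, an Eif4 median of -0.27, 2 genes of the eIF2alpha list higher and 3 mTORC1 genes lower. Genes above level 5 gave 2587 of all genes higher, 2 Eif2 genes higher and 1 Eif4 gene higher, and a variance trend 1 Eif4 gene higher. At 0.01 there were 2475 of all genes higher, 4 Eif4 genes lower and 1 higher, and 3 mTORC1 genes lower and 4 higher. Except where an alternative tests fewer genes or samples, or is stricter, the cause was not tested. With the replicate number as a block, 22 initiation factor genes were lower and 4 higher, no call among them changed, and all genes came to 3508 lower and 3646 higher. Deviations from the group means over all genes were not correlated between samples of the same number (-0.01, 0.008 and -0.01). Such correlations cannot exclude a pairing, and the titles give only the number.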
